A study of Mus musculus with 34 samples.

Results

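The 42 genes described here encode the machinery that copies DNA and the enzymes that supply its deoxynucleotides. They were taken by symbol from a fixed list of members, and each was looked up in 3 deposited expression tables of mouse liver tumors and livers. All 42 members were among the 46528 genes of the mixed-strain tumor table and among the 16140 genes of the FVB tumor table. The Rag1-/- liver table lists 14074 genes and holds 37 members; Gins2, Gins3, Orc1, Cdc6 and Fen1 are not listed there. By role, 12 members are counted under origin licensing, 1 (Gmnn) inhibits licensing, 25 act at the fork or on the new strands, and 4 supply nucleotides. Mcm10 is counted under licensing, although it is needed for the later activation of the helicase.

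Replication starts at origins that are licensed in G1, when the origin recognition complex, Cdc6 and Cdt1 load the MCM helicase rings, and geminin (Gmnn) blocks further loading once S phase has begun. The loaded helicase is joined by Cdc45 and the GINS complex, with Mcm10 needed for its activation, and polymerases alpha, delta and epsilon then copy the strands with the PCNA clamp, its loader RFC and the single-strand binding protein RPA. Most of these genes are known targets of E2F factors and are transcribed mainly in cycling cells. Adult hepatocytes are largely quiescent, whereas MYC is a transcription factor that drives growth and cell cycle entry in liver tumors.

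The series holds 34 libraries of RNA sequencing and asks how tumors and livers with different amounts of Arid1a, a subunit of the SWI/SNF chromatin remodeler, differ in expression. In all tumor groups the alleles LAP-tta and TRE-MYC, a hepatocyte promoter driving the tet transactivator and a responsive MYC transgene, give MYC expression once doxycycline is withdrawn, and tumors were collected at death. The mixed-strain table compares 8 WT tumors (LAP-tta-Arid1aflfl;TRE-MYC, with no Cre) with 8 Het tumors (LAP-tta-Arid1afl/+;Alb-cre;TRE-MYC), from mice of mixed C57/B6, 129 and FVB background aged about 90 days. The FVB table compares 4 libraries each of WT, Het and Homo tumors, where WT and Het have the genotypes given above and Homo carries LAP-tta, TRE-MYC, Alb-cre and Arid1afl/fl. Their ages were about 55 days for WT, 70 days for Het and 100 days for Homo. The Rag1-/- table compares 3 livers given adeno-Cre (LAP-tta-WT;TRE-MYC+adCre) with 3 given adeno-hARID1A (LAP-tta-WT;TRE-MYC+adARID1A), from FVB mice aged about 42 days, 14 days after injection. Those 6 libraries carry the tissue label liver, although their source name reads as tumor tissue, and the host lacks mature T and B cells. Alb-cre deletes in the hepatocyte lineage, so other cells of a tumor keep Arid1a. Every WT tumor lacks Cre, so Cre and Arid1a dose cannot be told apart in any comparison with WT tumors. Age rises with Arid1a loss in the FVB tumors, so age and Arid1a dose cannot be told apart in any FVB comparison. Mixed WT and Het tumors share a labelled age, and FVB Het and Homo tumors both carry Cre. Every ad-ARID1A liver lacks the Cre virus, so virus and ARID1A dose cannot be told apart in the livers. The labels do not say whether libraries come from separate mice, and p-values therefore measure the spread between these samples, which may be technical.

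The libraries held 2.27 to 5.26 M reads in the mixed-strain table, 6.63 to 12.02 M in the FVB table and 8.72 to 10.6 M in the Rag1-/- table. Values are log2 CPM (a gene's reads scaled to the library's total), with 0.5 CPM added in the mixed-strain table, and the 3 tables were normalized separately. Arid1a was 8.47 ± 0.21 in mixed WT and 8.07 ± 0.14 in mixed Het tumors (SD, n = 8 each; limma adjusted p = 0.083). In FVB tumors it was 8.09 ± 0.25, 7.76 ± 0.31 and 7.74 ± 0.23 in WT, Het and Homo (SD, n = 4 each; limma adjusted p = 0.424 for Het and 0.515 for Homo against WT). In the livers, mouse Arid1a was 6.84 ± 0.02 with ad-Cre and 6.99 ± 0.22 with ad-ARID1A (SD, n = 3 each; limma adjusted p = 0.619), and since the virus carries human ARID1A, the mouse gene does not check that label. The 10 hepatocyte markers summed to 2802 to 13952 CPM in the tumor libraries and to 71123 to 86429 CPM in the livers. All 10 hepatocyte markers are listed in each table.

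Promoter windows were searched for the E2F and MYC motifs known for these genes, and for CCAAT and CHR letters. RefSeq windows on GRCm38.p6, from 250 bases before to 50 bases after the start, were matched for 34 of the 42 members. A match on either strand to one of 4 E2F motifs (TTTCCCGC, TTTCGCGC, TTTGCCGC or TTTGGCGC) was present in 14 of the 34 members, or 41.2%, against 2.6% of 27025 genes. Licensing genes held such a match in 7 of 11 cases, fork genes in 7 of 19 and nucleotide genes in 0 of 4. The letters CCAAT were in 23 of 34 members (67.6%, against 41.1% of all genes) and the MYC and MAX E-box CACGTG in 7 of 34 (20.6%, against 8.1%). No licensing promoter of the 11 held CACGTG, and 6 of 19 fork promoters did. The cell cycle element CHR, as TTTGAA or TTCGAA, was in 7 of 34 members (20.6%, against 21.7%). These shares describe letters in a window, not bound sites.

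Stretches of 6 promoters are printed, for members chosen after their values were seen. Each stretch lies before the RefSeq start of its gene and holds no annotated exon. The Cdc6 stretch lies within the annotated gene (chr11:98907801-98923940), in which another transcript starts further upstream. Capitals mark E2F and CCAAT letters on either strand, ATTGG being CCAAT on the opposite one, and each stretch is 5′ to 3′ on the gene's own strand:
Mcm6 (chr1:128359706-128359830, minus strand): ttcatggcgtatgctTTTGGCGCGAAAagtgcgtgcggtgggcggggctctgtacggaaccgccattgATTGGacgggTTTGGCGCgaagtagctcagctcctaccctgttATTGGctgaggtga
Mcm5 (chr8:75109341-75109506, plus strand): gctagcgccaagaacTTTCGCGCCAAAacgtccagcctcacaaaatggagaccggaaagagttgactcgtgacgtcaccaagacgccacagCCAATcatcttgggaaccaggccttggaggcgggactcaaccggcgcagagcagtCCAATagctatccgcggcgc
Cdc6 (chr11:98907982-98908041, plus strand): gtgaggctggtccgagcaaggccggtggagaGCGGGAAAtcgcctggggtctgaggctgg
Mcm10 (chr2:5012795-5012904, minus strand): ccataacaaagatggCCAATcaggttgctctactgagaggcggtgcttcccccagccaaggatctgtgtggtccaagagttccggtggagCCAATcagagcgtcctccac
Rpa2 (chr4:132768114-132768327, plus strand): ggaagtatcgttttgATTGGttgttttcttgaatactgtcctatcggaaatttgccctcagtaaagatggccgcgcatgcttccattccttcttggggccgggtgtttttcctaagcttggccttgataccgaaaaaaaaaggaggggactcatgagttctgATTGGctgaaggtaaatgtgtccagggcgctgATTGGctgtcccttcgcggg
Rrm2 (chr12:24708164-24708223, plus strand): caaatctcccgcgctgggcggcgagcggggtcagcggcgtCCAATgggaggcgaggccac

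Mcm6, the subunit with the highest level in every tumor group, held 3 E2F matches and 2 CCAAT matches in its stretch, and Mcm5 held 2 of each. In both, a match of TTTCGCGC on one strand overlaps a match of TTTGGCGC on the other, which is why a single run of capitals is longer than 1 motif. Cdc6 had 1 E2F match. The stretches of Mcm10, Rpa2 and Rrm2 held 2, 3 and 1 CCAAT matches and 0 E2F matches of these letters.

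Levels between genes were compared as CPM per kilobase of annotated exon. The MCM helicase subunits were among the highest members in tumors: Mcm6 ranked 1 of 42 in every tumor group, at 72.6 CPM per kilobase in mixed WT, 80.4 in mixed Het and 53.0 to 58.8 in the FVB groups. Per kilobase, Mcm2 was the lowest of the 6 ring subunits in each tumor and liver group. Its tumor levels ran from 19.9 CPM per kilobase in FVB Homo to 31.1 in mixed Het. That place rests on the length used: its annotated exons hold 6956 bases, against 3589 (Mcm4) to 4666 (Mcm6) for Mcm3 to Mcm7. In mean log2 CPM, before that division, Mcm2 was not the lowest ring subunit in any group. In FVB WT tumors it was at 7.4, below Mcm6 at 8.02 and above Mcm7 at 7.16. With ad-Cre it was at 2.71 and Mcm5 at 2.15. Per kilobase, the highest ring subunit within a tumor group was 2.29 to 2.84 times the lowest, and this ratio rests on the same lengths. Fen1, the flap endonuclease, ranked 42 of 42 in the tumors, with 3 to 38 reads a library, and 84.2% of its exon bases overlap other genes. In the livers, ring subunits stood at 1.01 (Mcm2) to 3.84 (Mcm7) CPM per kilobase with ad-Cre and at 1.39 to 3.36 with ad-ARID1A, each the mean of 3 libraries. The median member was at 12.4 to 19.3 CPM per kilobase in the 5 tumor groups and at 1.37 and 1.54 in the 2 liver groups. These levels across tables are set side by side without a test. In bulk tissue, fewer cells of a type and less RNA per cell cannot be told apart.

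Mcm10, the helicase activation factor, stood below its partners in tumors and above them in livers. It ranked between 25 and 30 of 42 members in the tumor groups, at 8.82 to 12.2 CPM per kilobase, or 0.23 to 0.34 times the median ring subunit. In the livers it ranked 1 of 37, at 17.7 CPM per kilobase with ad-Cre and 10.5 with ad-ARID1A, which is 8.6 and 4.06 times the median ring subunit. Its annotated exons hold 7692 bases, more than those of any ring subunit, and these ranks and ratios rest on that length. Mcm10 had about 1222 to 1436 reads in the ad-Cre and 665 to 784 in the ad-ARID1A libraries. In the tumors it had about 80 to 659 reads in the mixed-strain and 355 to 972 in the FVB libraries. Where in the gene these reads fall was not tested. Its exons (gene at chr2:4989714-5012791, minus strand, GRCm38) overlap no other annotated gene.

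**Figure D1:**
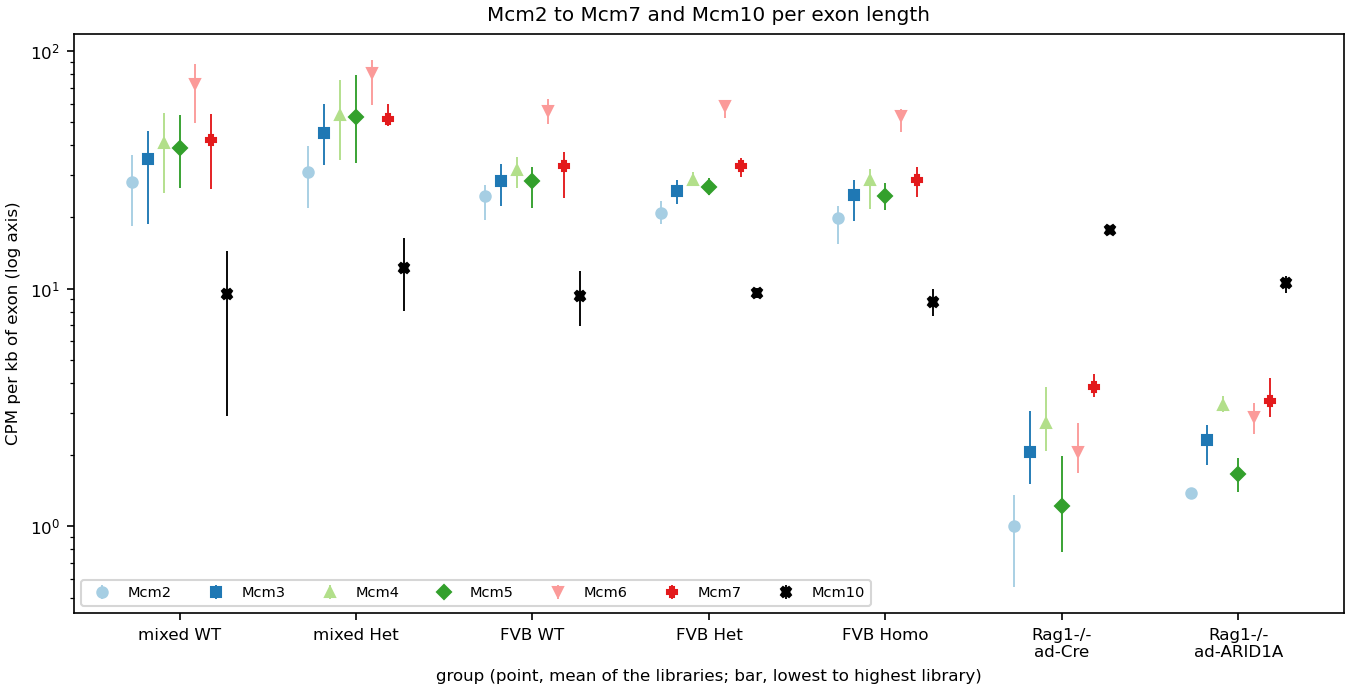
Levels of the 6 ring subunits Mcm2 to Mcm7 and of Mcm10 in each of the 7 groups, as CPM per kilobase of exon on a log axis; points are group means and bars run from the lowest to the highest library. Mcm10 lies below the ring subunits in the 5 tumor groups, at 8.82 to 12.2, and above them in the 2 liver groups, at 17.7 and 10.5.

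Replication genes were higher in mixed-strain Het tumors than in WT tumors for nearly the whole list, by small amounts, and no member passed the adjusted threshold. Of 42 members, 41 had a positive Het minus WT difference, where 56.1% of all 17552 genes tested did. The median member differed by 0.32 on the log2 scale, against 0.05 for all genes, and Pcna, the sliding clamp, was the exception at -0.12 ± 0.15 (SE). None of the 42 was called at a limma adjusted p under 0.05, where 0.16% of all genes were. At an unadjusted p under 0.05, 14 members were higher and 0 lower, against 8.29% and 7.5% of all genes. In 0 members did the 8 Het and 8 WT libraries separate completely, against 0.057% of all genes with Het above and 0.0798% with Het below.

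The 12 licensing genes were all higher in mixed Het tumors, with a median difference of 0.40. Cdt1, which loads the helicase, differed by 0.40, Mcm7 of the ring by 0.33, and Orc1, the largest subunit of the origin recognition complex, by 0.63, with limma adjusted p of 0.224, 0.255 and 0.265. Orc1 had the largest difference of the 42. Mcm2 ran from 7.0 over a median of 7.61 to 7.99 in WT and from 7.25 over 7.69 to 8.12 in Het libraries, so the groups overlapped almost fully. The loading ATPase Cdc6 ran from 4.41 over 5.51 to 6.15 in WT and from 5.11 over 5.57 to 5.96 in Het libraries. The lowest WT library of Cdc6 lay below every Het library, while the highest WT library lay above them all. Gmnn, the licensing inhibitor, differed by 0.18 (limma adjusted p = 0.557).

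Of the 25 fork genes, 24 were higher in mixed Het tumors, with a median of 0.32. The leading member was Rpa2, a subunit of the single-strand binding complex, at 5.86 ± 0.40 in WT and 6.47 ± 0.25 in Het (SD, n = 8 each), a difference of 0.61 ± 0.16 (SE; limma adjusted p = 0.128). Its libraries ran from 5.29 over a median of 5.80 to 6.34 in WT and from 6.03 over 6.43 to 6.76 in Het tumors. Pold1, the catalytic subunit of polymerase delta, ran from 5.16 over 5.85 to 6.23 in WT and from 5.84 over 6.36 to 7.05 in Het tumors, a difference of 0.57 ± 0.19 (SE; limma adjusted p = 0.174). For both genes the upper WT libraries overlapped the lower Het libraries. Rfc4 of the clamp loader differed by 0.60 (limma adjusted p = 0.213). Pcna ran from 6.64 over 7.15 to 7.58 in WT and from 6.63 over 7.11 to 7.40 in Het libraries.

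The 4 nucleotide genes were also higher in mixed Het tumors, but by less, with a median of 0.12. Rrm1, the large subunit of ribonucleotide reductase, differed by 0.22, thymidine kinase Tk1 by 0.11 and thymidylate synthase Tyms by 0.13, with limma adjusted p of 0.441, 0.737 and 0.778. Rrm2, the regulated reductase subunit, ran from 6.37 over a median of 7.50 to 7.86 in WT and from 6.57 over 7.56 to 7.66 in Het libraries, with the Het range inside the WT range.

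A few libraries carried much of the spread among mixed-strain tumors. WT replicate 2 was the lowest of its group in 34 of 42 members, with a median member deviation of -0.88 from the gene's mean in the table, where the median over all genes was -0.11. That library was also the shallowest, at 2.27 M reads, and had the highest summed hepatocyte markers of the table, at 12344 CPM against 5231 to 7255 CPM in the other WT libraries. Its macrophage, stellate and fibroblast, and endothelial sums were the highest of the table too, at 984, 1102 and 399 CPM. Its erythroid, T and NK, B and plasma, neutrophil and biliary sums were not. Among Het tumors, replicate 5 was the lowest in 29 members and replicate 6 the highest in 19. Without WT replicate 2, 40 members were higher and the median was 0.22; without it and Het replicate 5, the values were 41 and 0.26. The count at an unadjusted p under 0.05 ran from 8 to 21 when 1 library was left out, where the share of all genes ran from 5.76% to 9.68%. It was 8 without WT replicate 2 (5.92% of all genes) or Het replicate 6 (5.76%), and 9 without WT replicate 4 (8.45%), Het replicate 1 (6.02%) or Het replicate 4 (6.34%).

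**Figure D2:**
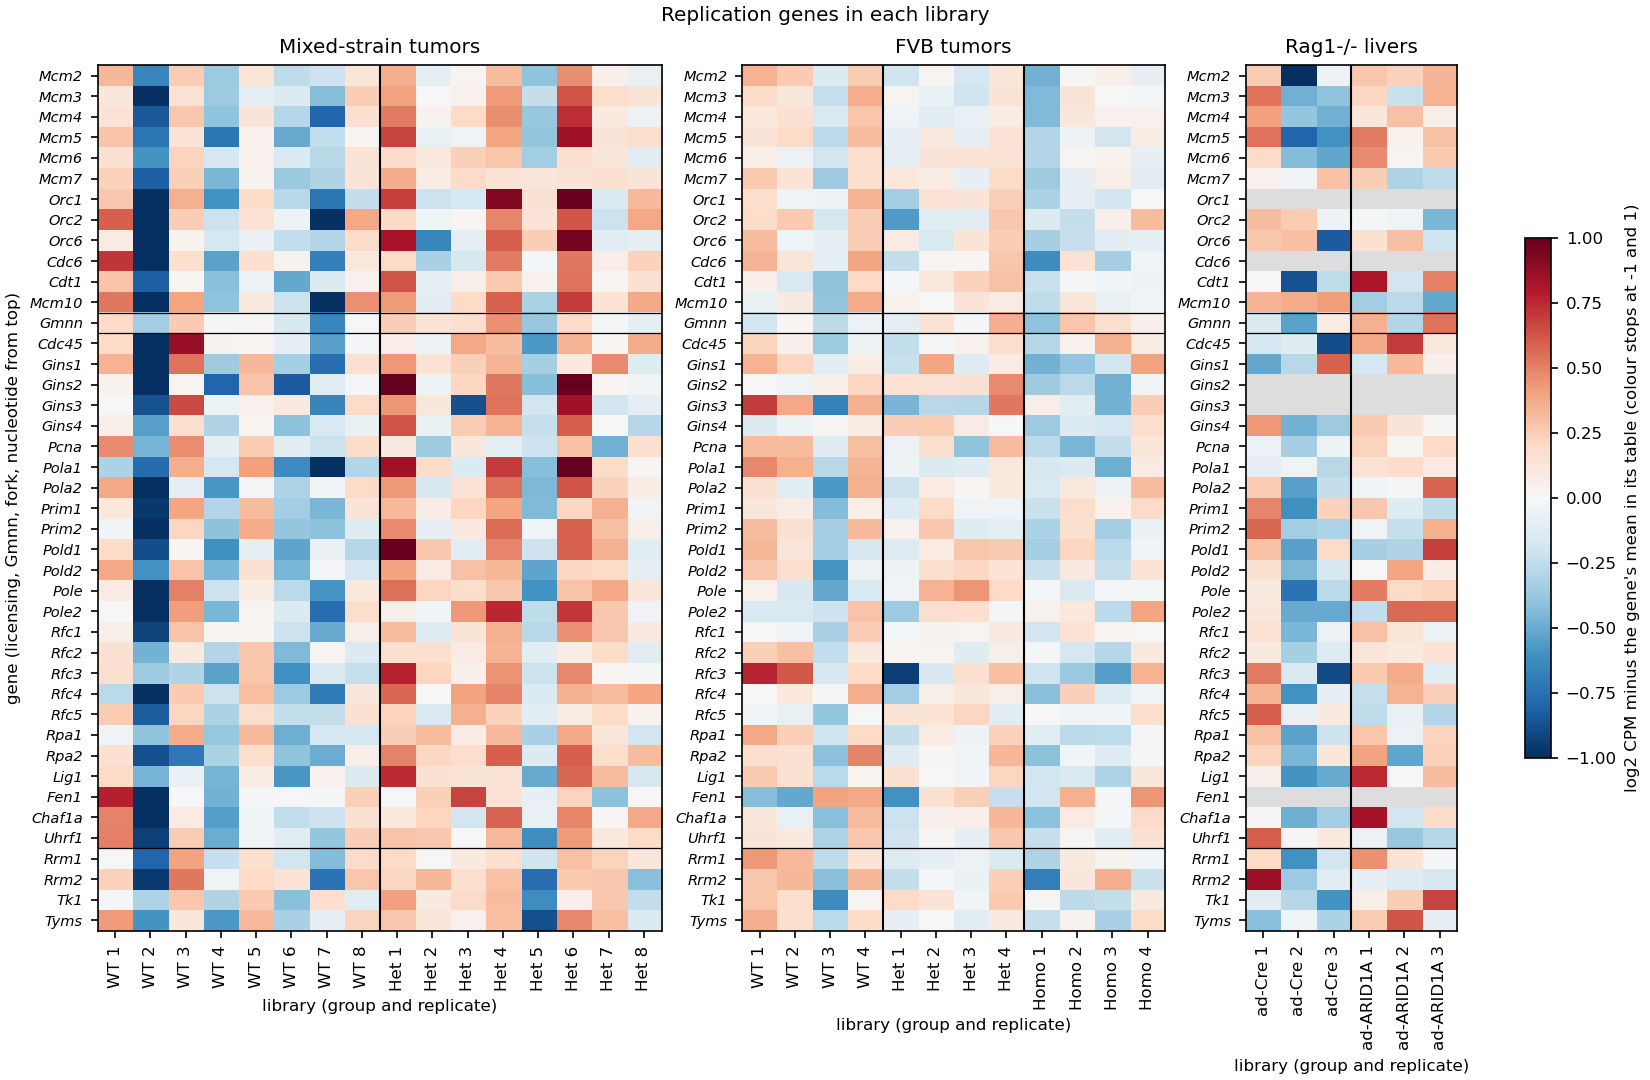
Heat map of each member's log2 deviation from its mean over the libraries of its table, with members in rows by role and libraries in columns by group. In mixed WT replicate 2 the median deviation was -0.88 and that library was the lowest of its group in 34 of 42 members; grey marks members not listed.

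Related genes were mostly higher in mixed Het tumors too, by differing shares, and none was called by limma. Of 31 further replication genes, 30 were higher in Het tumors with a median of 0.38, led by the clamp loader factor Chtf18 at 0.59 and the chromatin assembly subunit Chaf1b at 0.68 (limma adjusted p = 0.141 and 0.157). Of 19 genes of E2F and cyclin E control, 15 were higher with a median of 0.17, with E2f7 at 0.79 and the pocket protein Rbl1 at 0.48 (limma adjusted p = 0.201 and 0.246). Of 31 other nucleotide supply genes, 24 were higher with a median of 0.13, led by CTP synthase Ctps at 0.39 and the purine enzyme Ppat at 0.31 (limma adjusted p = 0.322 and 0.396). Of 12 genes listed as proliferation markers, 11 were higher with a median of 0.24. Mybl2 was at 1.11 and Ccnb1 at 0.53 (limma adjusted p = 0.209 and 0.252). That list also holds Cdkn1a, an inhibitor of the cell cycle, which was the 1 lower gene, at -0.21.

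Markers of several other cell types were lower in the same Het tumors, and those of some were not. All 10 hepatocyte markers had a negative difference, with a median of -0.35, and summed to 5231 to 12344 CPM in WT and 2802 to 6305 CPM in Het libraries. The 6 neutrophil markers tested were also all lower, with a median of -1.71 and sums of 12.4 to 137 CPM in WT and 5.88 to 52.4 CPM in Het libraries, and Ly6g was at 0 in every Het library. Stellate and fibroblast markers were lower in 6 of 7 cases, with sums of 165 to 1102 and 162 to 829 CPM, and endothelial markers in 4 of 6, with sums of 135 to 399 and 98.7 to 288 CPM. The top WT sums of the hepatocyte, stellate and endothelial markers were those of WT replicate 2. Erythroid markers were lower in 8 of 9 cases and macrophage markers in 6 of 8, while T and NK markers were higher in 4 of 7, B and plasma markers in 3 of 4 and biliary markers in 3 of 5, with Epcam at 2.02 (limma adjusted p = 0.212). The part of these shifts in the members' differences was not tested.

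In FVB tumors no member was called either. The strains were fitted apart, and the difference between them was not tested. The 3 FVB comparisons share samples: each group enters 2 of them. Het tumors stood near WT tumors, with 19 members higher and 23 lower and a median difference of -0.05, where 52.8% of all 16140 genes were higher and their median was 0.02. None of the 42 had a limma adjusted p under 0.05 (0.0248% of all genes). At an unadjusted p under 0.05, 1 member was higher and 0 lower, against 8.14% and 6.07% of all genes. No member separated the groups, where 4.41% of all genes had every Het library above and 2.47% every Het library below the WT libraries.

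Among the licensing genes, 4 of 12 were higher in FVB Het than in WT tumors, with a median of -0.07, and the 3 with the smallest p were Cdt1 at 0.23, Mcm2 at -0.24 and Orc2 at -0.26. In limma the adjusted p of Cdt1 was 0.458, of Mcm2 0.502 and of Orc2 0.58. Gmnn differed by 0.22. Of 25 fork genes 13 were higher, with a median of 0.02. The polymerase epsilon catalytic gene Pole read 7.41, 7.21, 6.86 and 7.22 in WT, 7.34, 7.72, 7.81 and 7.57 in Het, and 7.36, 7.23, 7.36 and 7.36 in Homo libraries. Its Het minus WT difference was 0.44 ± 0.13 (SE; limma adjusted p = 0.156), with 3 of 4 Het libraries above every WT library. Rfc5 of the clamp loader was at 0.22 and the primase polymerase subunit Pola1 at -0.28. Of the nucleotide genes only Tk1 was above 0, at 0.18, with Rrm1 at -0.27 and Tyms at -0.14.

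FVB Homo tumors had lower values than WT tumors for most members. A negative difference was found for 33 of 42, with 9 above 0 where 46.7% of all genes were, and the median was -0.18 against -0.02 for all genes. None passed a limma adjusted p under 0.05 (0.0434% of all genes). At an unadjusted p under 0.05, 0 members were higher and 5 lower, against 4.37% and 5.64% of all genes. Those 5 were Pcna, Pola1, Rpa1, Cdc6 and Mcm2. In 1 member, Orc6, every Homo library lay below every WT library, which held for 1.98% of all genes, and 0 members had every Homo library above (2.09% of all genes).

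All 12 licensing genes were lower in FVB Homo than in WT tumors, with a median of -0.18. Mcm2 read 7.57, 7.48, 7.08 and 7.47 in WT, 7.02, 7.25, 7.05 and 7.34 in Het, and 6.74, 7.23, 7.27 and 7.14 in Homo libraries. Its Homo minus WT difference was -0.31 (limma adjusted p = 0.496), with WT replicate 3 among the Homo values. Cdc6 read 5.24, 5.02, 4.81 and 5.29 in WT, 4.66, 4.93, 4.92 and 5.18 in Het, and 4.27, 5.04, 4.57 and 4.86 in Homo libraries, a Homo minus WT difference of -0.41 (limma adjusted p = 0.478). For Cdc6 the Homo libraries were spread the widest of the 3 groups. Orc6, a small origin recognition subunit, read 4.94, 4.58, 4.54 and 4.87 in WT against 4.29, 4.39, 4.51 and 4.53 in Homo libraries, the nearest of them at 4.54 and 4.53. Gmnn lay on the other side, at 0.15.

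Of the 25 fork genes, 8 were higher and 17 lower in FVB Homo than in WT tumors, with a median of -0.10. Pcna read 7.09, 7.09, 6.65 and 7.07 in WT, 6.71, 6.93, 6.37 and 7.09 in Het, and 6.51, 6.31, 6.53 and 6.89 in Homo libraries. Its Homo minus WT difference was -0.42 ± 0.17 (SE; limma adjusted p = 0.429), and 3 of 4 WT libraries lay above all Homo libraries. Pola1 read 6.64, 6.51, 5.88 and 6.50 in WT, 6.11, 6.02, 6.04 and 6.26 in Het, and 6.0, 6.02, 5.67 and 6.24 in Homo libraries (Homo minus WT -0.40, limma adjusted p = 0.43). Rpa1, the large single-strand binding subunit, differed by -0.32 (limma adjusted p = 0.462). For Pcna and Pola1 alike, WT replicate 3 was the low WT library.

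The nucleotide genes were lower in FVB Homo than in WT tumors in 4 of 4 cases, with a median of -0.20. Rrm1 read 7.69, 7.58, 7.0 and 7.39 in WT, 7.13, 7.16, 7.2 and 7.11 in Het, and 6.95, 7.35, 7.29 and 7.23 in Homo libraries. Rrm2 read 7.01, 7.07, 6.32 and 7.07 in WT, 6.50, 6.73, 6.67 and 6.98 in Het, and 6.05, 6.85, 7.10 and 6.52 in Homo libraries. In both genes 3 WT libraries were high and replicate 3 was low, and the groups overlapped. The Homo minus WT difference was -0.21 for Rrm1, -0.24 for Rrm2 and -0.19 for Tyms.

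WT replicate 3 was the lowest WT library in 39 of 42 members, with a median member deviation of -0.26 from the gene's mean in the table and a median of -0.20 over all genes. It was the shallowest FVB library, at 6.63 M reads. Without it, 37 members were lower in Homo than in WT tumors, 16 of them at an unadjusted p under 0.05, and the median was -0.27. All genes shifted in that setting too: 38.4% were above 0, 10.6% were lower at that p, and their median was -0.08. Without WT replicate 1 or WT replicate 4, 0 members were lower at that p (4.27% and 6.72% of all genes), and without Homo replicate 1, itself the lowest of its group in 26 members, the median was -0.09. With each library centred on its own median, 27 of 42 were lower and the median was -0.10, while the median of all genes moved from -0.02 to 0.06. In the Het comparison, leaving out WT replicate 3 gave 33 lower members with 44.4% of all genes higher, and leaving out WT replicate 4 gave 18 with 55.1% higher. The non-coding transcript Gm26917 alone took 7.32% to 14.0% of the reads of the FVB libraries, with the top share in Het replicate 4.

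Between the FVB groups that both carry Cre, 34 of 42 members were lower in Homo than in Het tumors, with 8 above 0 where 41.1% of all genes were. The median was -0.11, against -0.04 for all genes. Limma called 0 members, and the background was 0% of all genes. At an unadjusted p under 0.05, 0 members were higher and 2 lower, where 1.33% and 2.53% of all genes were. Gins2 of the GINS complex read 3.90, 3.86, 3.97 and 4.11 in WT, 4.05, 4.05, 4.06 and 4.38 in Het, and 3.55, 3.64, 3.43 and 3.88 in Homo libraries. It was the 1 member with every Homo library below every Het library (1.75% of all genes), and 0 members had every Homo library above (0.923%). Its Homo minus Het difference was -0.51 ± 0.16 (SE; limma adjusted p = 1.0). Its exons share 67.3% of their bases with another gene on the opposite strand, and without strand the reads of the pair cannot be told apart. Pole differed by -0.28.

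The licensing genes were lower in FVB Homo than in Het tumors in 11 of 12 cases, the fork genes in 19 of 25 and the nucleotide genes in 3 of 4, with medians of -0.14, -0.09 and -0.07. The licensing genes with the smallest p were Orc6 at -0.27, Cdt1 at -0.23 and Mcm7 at -0.19, and Gins4 among the fork genes was at -0.27. Tk1 was at -0.24, Rrm2 at -0.09, Rrm1 at 0.06 and Gmnn at -0.08. Every member had a limma adjusted p of 1.0 in this comparison.

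**Figure D3:**
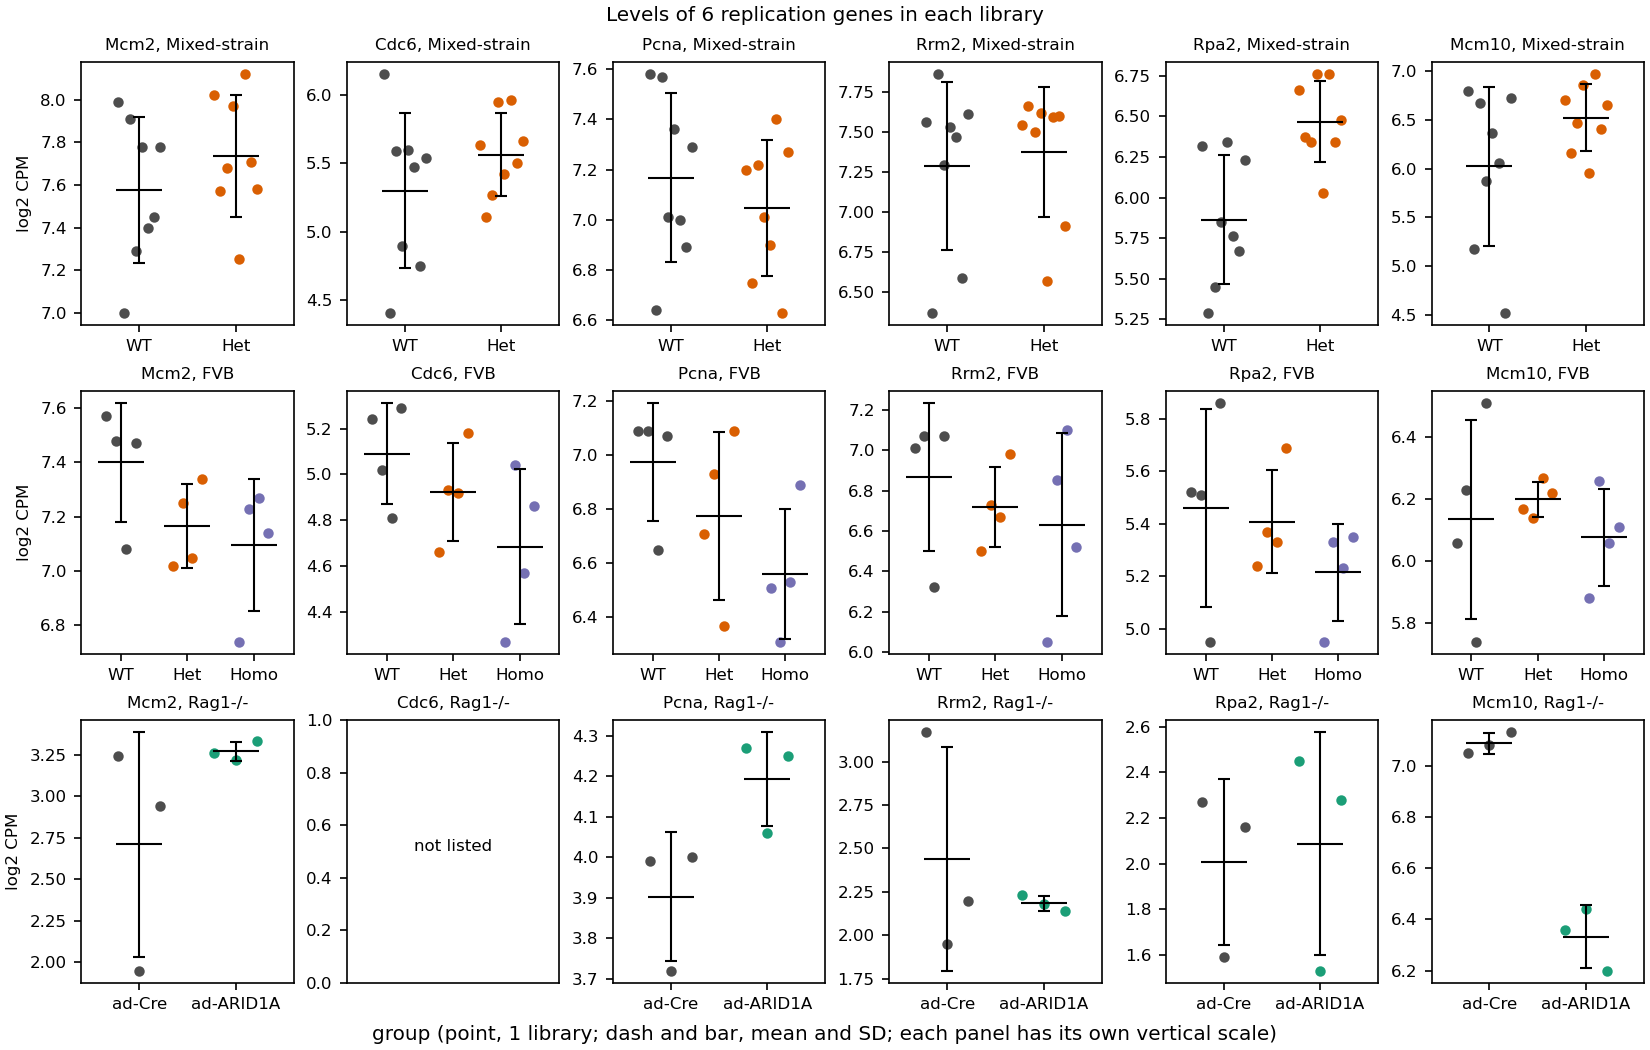
Log2 level of Mcm2, Cdc6, Pcna, Rrm2, Rpa2 and Mcm10 in each library, in log2(CPM + 0.5) for the mixed strain and log2 CPM for the FVB and Rag1-/- tables, with points for libraries and a dash and bar for the group's mean and SD. Groups overlap in the tumor panels shown; in the livers, the 3 ad-ARID1A values of Mcm10 lie between 6.20 and 6.44, below the 3 ad-Cre values of 7.05 to 7.13.

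Related genes in FVB tumors gave mixed counts, and limma called none in any of the 3 comparisons. Further replication genes were higher in 19 of 31 cases in Het against WT tumors (median 0.04) and in 10 of 31 in Homo against WT (median -0.06), and in 9 of 31 in Homo against Het (median -0.05). Chtf18 was at -0.38 in Homo against WT and at -0.61 against Het tumors, and the fork protection gene Timeless at -0.41 against Het tumors. Of 19 E2F and cyclin E genes, 14 were lower in Het and 15 in Homo than in WT tumors, with Ccne1, cyclin E, at -1.0 in Het tumors and E2f6 at -0.71 and -0.79. Of 31 other nucleotide supply genes, 20 were higher in Het and 18 in Homo than in WT tumors, with the folate enzymes Shmt1 at 0.40 in Het and Shmt2 at 0.42 in Homo tumors. Of the 12 genes listed as proliferation markers, 8 were lower in Het and 9 in Homo than in WT tumors. The kinase Plk1 was at -0.55 in Homo tumors. The 8 lower in Het tumors include the inhibitor Cdkn1a, at -0.29.

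Other cell markers also differed among the FVB groups. The 7 stellate and fibroblast markers were lower than in WT in 6 cases in Het and 7 in Homo tumors. Lrat, the stellate cell retinol enzyme, fell by 2.50 in Het tumors (limma adjusted p = 0.0234), where 0.0248% of all genes were called. That call was not steady. With log2(CPM + 1) or the replicate block, 0 genes were called in that comparison. The count was also 0 without WT replicate 2, Het replicate 2 or Het replicate 3. Erythroid markers were lower than in WT in 8 of 9 cases in both groups, and Hba-a2 was at 0 in all libraries of both. Neutrophil markers were lower in 6 of 6 cases in Het tumors, where S100a8, S100a9, Ltf, Mpo and Elane were at 0 in every library. A listed 0 here stands for a value at or below 1 CPM. The neutrophil markers summed to 2.53 to 86.3 CPM in WT, 0 to 1.19 in Het and 1.8 to 120 in Homo libraries. WT replicates 3 and 4 were themselves low, at 5.87 and 2.53 CPM. Hepatocyte markers summed to 7306 to 13952 CPM in WT, 4914 to 10402 in Het and 7337 to 12859 in Homo libraries. The part of these shifts in the members' differences was not tested.

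In the Rag1-/- livers most members were higher with ad-ARID1A than with ad-Cre, while Mcm10 fell. Of 37 members 30 were higher, with a median of 0.29, but 66.3% of all 14074 genes were also higher, with a median of 0.09. Mcm10 was the only member called at a limma adjusted p under 0.05, where 0.32% of all genes were. At an unadjusted p under 0.05, 4 members were higher (Tk1, Pole, Lig1 and Mcm6) and 1 lower (Mcm10), against 9.88% and 2.62% of all genes. In 5 members (Tk1, Pole, Cdc45, Pcna and Pola1) every ad-ARID1A library lay above every ad-Cre library, as in 13.9% of all genes. In 2 members, Mcm10 and the maintenance methylation factor Uhrf1, every ad-ARID1A library lay below, as in 3.47% of all genes.

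Mcm10 read 7.05, 7.08 and 7.13 with ad-Cre and 6.36, 6.44 and 6.20 with ad-ARID1A. The 2 groups were far apart relative to their spread, at 7.09 ± 0.04 and 6.33 ± 0.12 (SD, n = 3 each), and Mcm10 fell by 0.75 ± 0.09 (SE; limma adjusted p = 0.0133). In log2 CPM, undivided by exon length, Mcm10 lay 3.46 to 4.33 above the median of its 6 ring partners with ad-Cre. With ad-ARID1A it lay 2.82 to 3.08 above that median, each library taken on its own. In the tumors that gap was negative in every library, from -2.78 to -0.57. The Mcm10 call was lost without the variance trend (limma adjusted p = 0.151) and without any 1 library other than ad-ARID1A replicate 3 (limma adjusted p from 0.061 to 0.106), while the difference stayed between -0.81 and -0.69 when 1 library was left out.

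Of the 10 licensing genes listed for the livers, 7 were higher with ad-ARID1A, with a median of 0.27. Mcm6 differed by 0.51 and Cdt1 by 0.76 (limma adjusted p = 0.39 and 0.419). Mcm2 read 3.24, 1.95 and 2.94 with ad-Cre and 3.26, 3.22 and 3.33 with ad-ARID1A, with the second ad-Cre library far below the other 5. Besides Mcm10, the members below 0 were Mcm7 at -0.21 and Orc2 at -0.34. Gmnn was at 0.40 (limma adjusted p = 0.66), on 20 to 36 reads a library.

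Fork genes were higher with ad-ARID1A in 19 of 22 cases, with a median of 0.27. Pole differed by 0.61, the Okazaki ligase Lig1 by 0.70 and the helicase cofactor Cdc45 by 0.79 (limma adjusted p = 0.339, 0.365 and 0.403). Pcna read 3.99, 3.72 and 4.0 with ad-Cre and 4.27, 4.06 and 4.25 with ad-ARID1A, a narrow gap with no overlap. Cdc45 was at or below 1 CPM, and so listed at 0, in 1 ad-Cre library and Pole2 in 2, and fold changes of such low members depend on that limit. Uhrf1 was at -0.48, on 15 to 32 reads a library.

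Among the nucleotide genes, 3 of 4 were higher with ad-ARID1A, with a median of 0.46. Tk1 read 3.97, 3.79 and 3.48 with ad-Cre and 4.13, 4.33 and 4.75 with ad-ARID1A, a difference of 0.66 (limma adjusted p = 0.206). Tyms differed by 0.52 and Rrm1 by 0.39 (limma adjusted p = 0.413 and 0.478). Rrm2 stood apart at -0.26, with 3.17, 1.95 and 2.20 against 2.23, 2.18 and 2.14, and 1 ad-Cre library was high.

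The median member deviation had an SD of 0.34 over the 3 ad-Cre libraries and of 0.10 over the 3 ad-ARID1A libraries. Replicate 1 of ad-Cre was the highest of its group in 28 of 37 members and replicate 2 the lowest in 26. Without replicate 1 the median difference was 0.46 (0.12 over all genes), and without replicate 2 it was 0.17 (0.07 over all genes) with 26 members higher. With each library centred on its own median, 27 of 37 members were higher with a median of 0.19, where the median of all genes moved from 0.09 to -0.01. Of the further replication genes 20 of 27 were higher with ad-ARID1A (median 0.13), of the E2F and cyclin E genes 16 of 19 (median 0.27), of the other nucleotide genes 21 of 31 (median 0.09) and of the proliferation markers 8 of 10 (median 0.27). None of these was called by limma; the leading ones were Rnaseh2b at 0.78, E2f2 at -0.79, Dtymk at 0.42 and Birc5 at 1.05 (limma adjusted p = 0.221, 0.37, 0.309 and 0.377). The mouse Myc gene was at -1.40 ± 0.38 (SE; limma adjusted p = 0.175), on 0.001% to 0.003% of the reads of the livers. Whether reads of the TRE-MYC transgene count toward it is not known, so this value does not give the transgene's level. All 7 stellate and fibroblast markers (sums 277 to 500 CPM with ad-Cre, 466 to 547 with ad-ARID1A) and all 6 endothelial markers (292 to 332 against 339 to 368 CPM) were higher with ad-ARID1A, where 66.3% of all genes were. Biliary markers were higher in 2 of 2 cases and macrophage markers in 4 of 8. Hepatocyte markers were lower in 8 of 10 cases and erythroid markers in 3 of 4. The 1 T and NK marker tested, Cd4, was at -0.17, and the 1 neutrophil marker, Csf3r, at -0.37 (limma adjusted p = 0.832 and 0.742). Since the host lacks mature T cells, Cd4 is not read as a T cell marker there. The part of these shifts in the members' differences was not tested.

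With all libraries, licensing genes and the pooled 29 fork and nucleotide genes had median differences of the same sign in each comparison. Their median differences were 0.40 and 0.30 in the mixed strain and 0.27 and 0.28 in the livers. In FVB tumors they were -0.07 and -0.05 in Het against WT and -0.18 and -0.18 in Homo against WT. In Homo against Het they were -0.14 and -0.09. In FVB Het against WT the shared sign rests on pooling: the fork median was 0.02 and the nucleotide median -0.14. There, licensing, fork and nucleotide medians were -0.035, 0.078 and -0.095 without Het replicate 1. Without WT replicates 1 and 2 they were -0.048, 0.068 and 0.021. Without WT replicate 3 they were -0.156, -0.088 and -0.296. Within libraries, the median deviation of the licensing genes minus that of the fork and nucleotide genes ran from -0.12 to 0.12 in mixed WT and from -0.19 to 0.21 in mixed Het tumors. The gap ran from -0.06 to 0.13 in FVB WT, -0.05 to 0.06 in FVB Het and -0.15 to 0.17 in FVB Homo tumors, and from -0.13 to 0.12 with ad-Cre and -0.12 to 0.04 with ad-ARID1A. These ranges overlapped between all groups of each table.

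**Figure D4:**
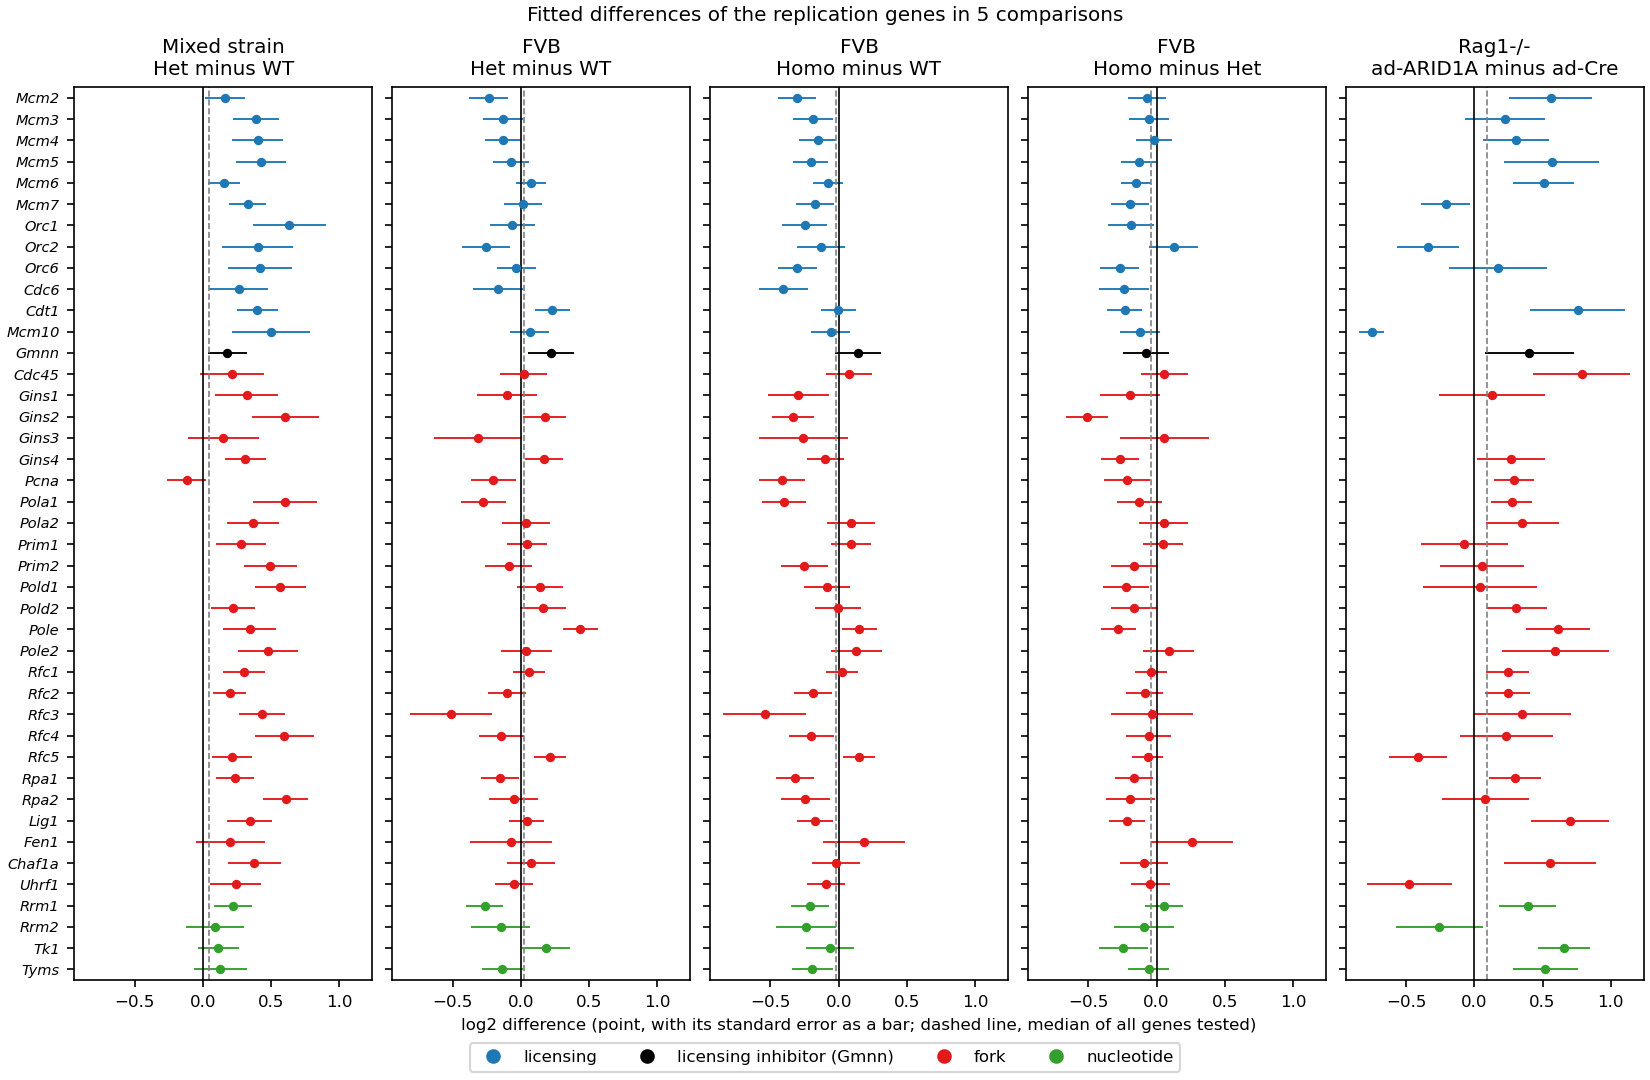
Log2 difference of each member with its standard error in the 5 comparisons, with members grouped by role; the dashed line is the median of all genes tested. Nearly all members lie right of 0 in the mixed strain (41 of 42), most lie left of it in FVB Homo against WT (33 of 42), and Mcm10 at -0.75 stands apart in the livers.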

How the data were processed

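Libraries were made from total RNA of frozen tissue with a Nugen kit, per the labels' protocols. Trim Galore, HISAT2, SAMtools, featureCounts and GRCm38 (mm10) are named in the submitters' processing notes; neither versions nor strandedness were found in the labels. The authors deposited log2 values: the mixed-strain file, although named for RPKM, holds log2(CPM + 1), and the other files hold log2 CPM in which values at or below 1 CPM are listed at 0. This was read from the values, which step by whole reads. Columns were matched to samples by the names in the labels; those of the 3 ad-ARID1A samples are written there with the ad-Cre stem, and were matched by number to the columns named for Arid. Beyond these, 0 columns of per-sample values were left unused.

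Each table was fitted alone with limma 3.58.1 (R 4.3.3, lmFit and eBayes with a variance trend), two-sided, with Benjamini-Hochberg adjustment over all its genes and a threshold of 0.05. The mixed-strain values were refitted as log2(CPM + 0.5) for the 17552 genes with a mean of at least 0.5 CPM. The 3 FVB groups shared 1 fit. The code was tested on simulated data. No count model was used, because the deposited values are on a log scale.

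The members and lists were chosen with earlier results of these data known, so the lists are described by counts and medians and not tested. Fitted values are named for the 3 members with the smallest p in each role and for Gmnn, and values by library for Mcm2, Cdc6, Pcna, Rrm2 and the leading 2 members of each comparison. Orc6 and Uhrf1, Mcm7 and Orc2 in the livers, and the members printed for their promoters were singled out after their values were seen. Depth limits the precision of low members: reads cover counting error only. Alternatives tried were other offsets, filters, centring, weights, no trend, a replicate block and leaving out libraries.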

Additional observations from a re-analysis of the deposited data

Results flagged for a closer look

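Among 41 groups of 4 or 8 library values checked, 4 had a highest or lowest value far from the rest by Dixon's ratio, of which chance gives about 1 in 20. In FVB WT tumors, replicate 3 was low for Pcna, at 6.65 where the other 3 libraries were at 7.07 to 7.09 (ratio 0.955), and for Rrm2, at 6.32 where the others were at 7.01 to 7.07 (ratio 0.92). In FVB Het tumors, replicate 4 was high for Gins2, at 4.38 where the others were at 4.05 to 4.06 (ratio 0.97). In FVB Homo tumors, replicate 2 was low for Pole, at 7.23 where the other 3 were at 7.36 (ratio 1.0), although the whole range there was small.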

How the results depend on the processing

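Fewest members changed side in the mixed strain. Over 24 alternatives, 39 of 42 were higher in every one, 1 was lower in every one and 2 changed side. Its groups hold 8 libraries, against 4 in FVB and 3 in the livers, so leaving out 1 library weighs less in the mixed strain. The share of all genes that kept their side was not counted. In FVB tumors 16, 11 and 17 of 42 members changed side in at least 1 of 14 alternatives (Het against WT, Homo against WT, Homo against Het), and in the livers 9 of 37 did over 12. Leaving out 1 library, the members called stayed at 0 in all 4 tumor comparisons and ran from 0 to 1 in the livers, while members lower ran from 18 to 33 in FVB Het against WT; without the variance trend 0 were called there. With array weights, 4 members passed in FVB Het against WT (Mcm2 -0.35, Pola1 -0.44, Pole 0.42 and Rrm1 -0.38, limma adjusted p = 0.0469, 0.023, 0.0253 and 0.0241), where 14.2% of all genes passed with those weights. Without WT replicates 1 and 2, chosen after seeing the data, 15 members were lower in that comparison, with 63.0% of all genes higher. Whether the replicate numbers pair the libraries cannot be settled from so few pairs. Same-numbered deviations correlated between -0.2 and 0.278, with 1 of 8, 2 of 4, 1 of 4, 0 of 4 and 0 of 3 pairs over 0.1. Libraries correlated best with their own number in 2 of 8, 2 of 4, 3 of 4, 1 of 4 and 1 of 3 cases. With the replicate block, 0 members were called in the tumors and Mcm10 kept an adjusted p of 0.0264 in the livers. Some named differences reversed, none of them called by limma in either setting. In FVB Het against WT, Tk1 turned to -0.033 with array weights and ran from -0.014 (without WT replicate 3) to 0.442 (without WT replicates 1 and 2), and Tyms from -0.262 to 0.018 over the same settings. In FVB Homo against WT, Rrm1 turned to 0.01 without WT replicates 1 and 2. In FVB Homo against Het, Gmnn turned to 0.001 with array weights, to 0.012 without Het replicate 4 and ran from -0.161 (without Homo replicate 2) to 0.066 (without Homo replicate 1), and Rrm2 from -0.247 (without Homo replicate 3) to 0.103 (without Homo replicate 1). The cause was not tested. Members with few reads, such as Fen1 in tumors and Cdc45, Pole2, Gmnn and Uhrf1 in livers, are limited by depth.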
